A study of Drosophila melanogaster with 2 samples.

Results

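The 8 genes described here mark or serve glia, the support cells of the fly nervous system. They are moody, loco, Gli, Mdr65, Gs2, Eaat1, drpr and repo, 8 of 13945 protein-coding genes annotated on the 6 chromosome arms (Ensembl release 115, Release 6 genome, the dm6 build). The genes were chosen from known glial markers with the region calls of these data already in view, so every count, signal and rank of their regions is a description, with no test. For each gene, every region overlapping the gene body or 5 kb on either side was collected, from the authors' thresholded list and from the pooled and replicate lists behind it.

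The data come from chromatin immunoprecipitation followed by sequencing (ChIP-seq), in which DNA bound by a protein is pulled down with an antibody, sequenced and searched for regions of high signal. Whole adult Drosophila melanogaster of both sexes pooled, of unstated age, stably carried Crg-1 with GFP at its C terminus, and the antibody recognised GFP. There was 1 group with 2 libraries, biological replicates 2 and 3, and no second genotype or treatment, and no untagged flies were analysed here. Both replicates came from 1 donor line, per the labels, and no independent insertion was analysed here. Read totals are not in the lists, and depth is unknown. Whole flies hold few glia among many other cells, so binding in few cells and weak binding in many cannot be told apart.

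Crg-1 is a transcription factor of the forkhead family, named as a circadianly regulated gene. Glia insulate the nervous system, take up and recycle transmitters and clear neuronal debris. The outermost glial layers form the blood-brain barrier, whose surface cells seal their borders with septate junctions, pump foreign compounds back to the blood, and are shaped by the G protein-coupled receptor Moody.

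Across the 8 genes, 10 thresholded regions lay in the windows, 3 at moody, 3 at Gs2, 2 at loco, 1 at drpr and 1 at repo, with none at Eaat1, Gli or Mdr65. Thus 5 of the 8 genes had a region in the window, beside 48.4% of all protein-coding genes. A thresholded summit, the position of highest signal within a region, lay within 500 bp of a start site of 4 genes, moody, Gs2, drpr and loco, beside 22.9% of all protein-coding genes. Nothing is read from these counts, because the regions were known when the genes were picked. In 6 of the 10 regions no other gene had a start site closer to the summit than the glial gene. Over all pairs of a protein-coding gene and a thresholded region in its window this held for 28.2%.

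**Figure D1:**
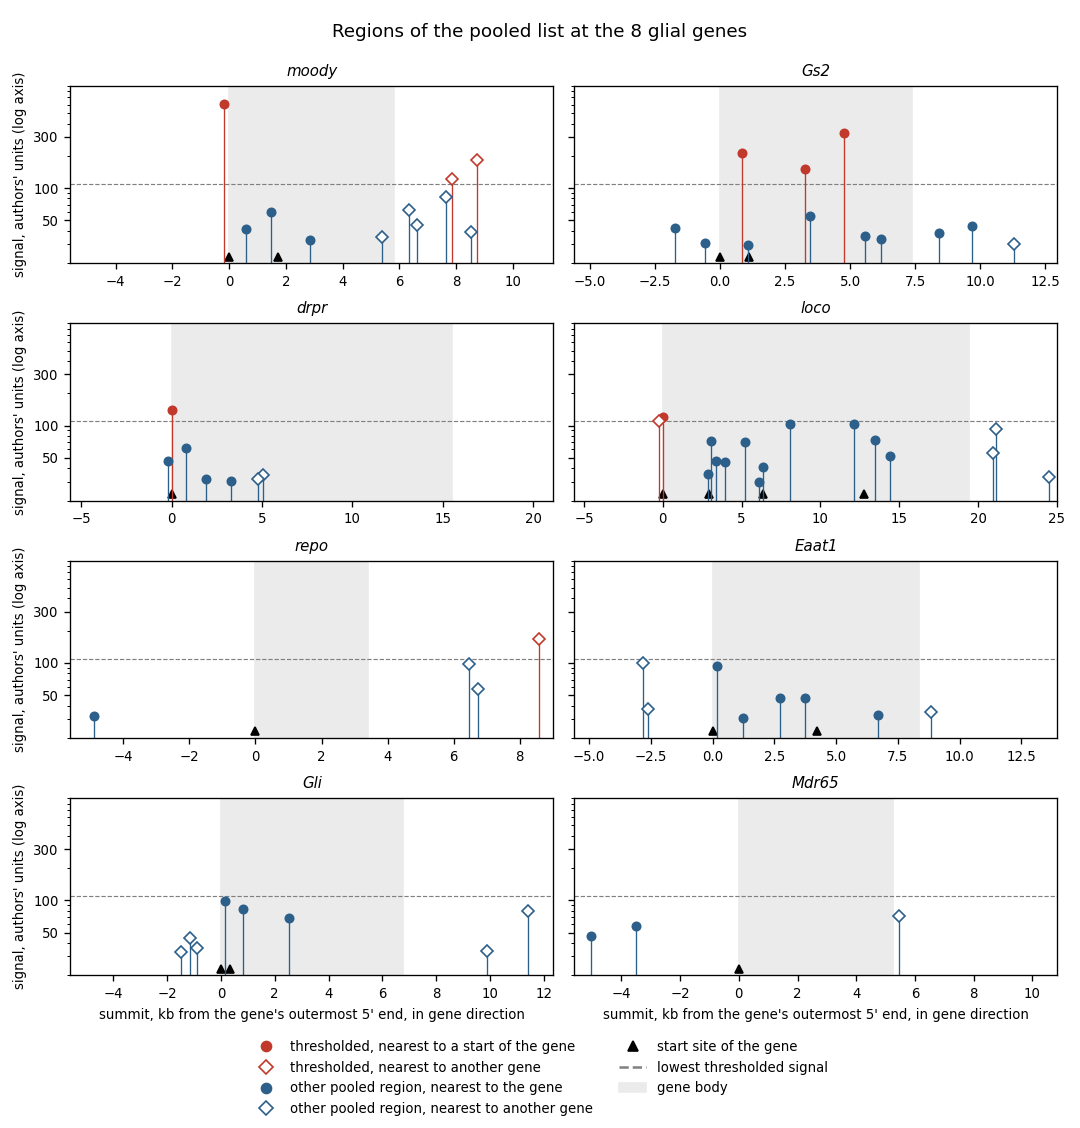
Each panel plots the pooled-list regions at 1 gene by the summit's distance in kb from the outermost 5′ end of the gene (x axis) and the authors' signal (y axis, log scale), with the gene body in grey and start sites as triangles. Filled points are nearest to a start site of the gene and open diamonds to that of another gene. Red points are the 10 thresholded regions, above the dashed line at 109.7, and the tallest is the moody region of 612.9.

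The barrier receptor gene moody (FBgn0025631, chrX:2044292-2050120, minus strand) had the strongest region of the set. It covered chrX:2050174-2050418, with the summit 175 bp upstream of the outer start site, from which the transcripts RB and RD begin. Its pooled signal was 612.9, rank 88 of 30000, so that 2.35% of the 3707 thresholded regions were stronger. In replicate 2 its signal was 360.8 at rank 90, and in replicate 3 it was 252.3 at rank 77. Both replicates placed it among their 100 strongest regions, with summits 12 bp apart. Signals are in the authors' units and run lower in each replicate list than in the pooled list, so only ranks are set side by side.

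The whole region is shown, on the strand of moody, because it holds the highest signal among these genes. Capitals mark GAGAG, the word bound by the GAGA factor, a chromatin protein of many fly promoters. The stretch is spanned by an intron of CG4313, a gene on the opposite strand that encloses moody, and holds no annotated untranslated bases.
moody, chrX:2050174-2050418, minus strand: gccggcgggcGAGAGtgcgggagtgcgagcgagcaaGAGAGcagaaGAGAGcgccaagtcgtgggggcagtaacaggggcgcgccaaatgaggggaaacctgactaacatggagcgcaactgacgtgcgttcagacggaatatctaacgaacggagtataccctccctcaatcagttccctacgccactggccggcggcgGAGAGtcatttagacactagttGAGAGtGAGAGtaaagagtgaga
GAGAG occurred 6 times in this stretch of 245 bp, at 75 bp or more from the summit, counting overlapping matches on both strands. Windows of that length around all thresholded summits held the word at least once in 30.0% of cases, and 1.97% held it 6 times or more. Within 50 bp of the moody summit none of the 5 words searched was found.

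The second start site of moody, used by transcripts RA, RC, RE and RF, carried weak signal. A pooled region with its summit 266 bp upstream of it had a signal of 60.1 at rank 9701, under the threshold. It ranked 8859 in replicate 2 with a signal of 41.0 and 19011 in replicate 3 with 17.3, so the replicates placed it far apart. The other 2 thresholded regions in the moody window belonged by distance to other genes. One had its summit 53 bp from a start site that Actn, encoding alpha-actinin, and usp, encoding a partner of the ecdysone receptor, have in common, with a pooled signal of 120.6 at rank 3144. The other lay in introns of both, 79 bp from a start site of usp, with 183.9 at rank 1465. In replicate 3 the first of these ranked 5350, outside the 3707 strongest, against 2744 in replicate 2.

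The gene loco (FBgn0020278, chr3R:22619968-22639387, minus strand) encodes a regulator of G protein signalling that acts with Moody in barrier glia. It had 2 overlapping thresholded regions at its outermost start site, that of transcript RD, and both lay close to the lower limit of the list. The first, chr3R:22639135-22639574, had its summit 32 bp downstream of the start, in the 5' UTR, with a pooled signal of 119.6 at rank 3189. Its replicate ranks were 2759 with a signal of 80.7 in replicate 2 and 5469 with 36.5 in replicate 3. The second, chr3R:22639386-22639825, had its summit 219 bp upstream, with 111.4 at rank 3599. It ranked 3788 in replicate 2 with 68.1 and 3662 in replicate 3 with 46.1. So replicate 2 had the higher signal on the loco side and replicate 3 on the upstream side.

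The upstream summit was nearer to wake, which begins 202 bp away on the other strand and encodes a protein known for promoting sleep onset under the clock. Both genes therefore share this stretch, and the region at loco counted equally for wake. The bases around the upstream summit are shown because they lie between the start sites of both genes. They held none of the words searched.
loco and wake, chr3R:22639556-22639656, minus strand: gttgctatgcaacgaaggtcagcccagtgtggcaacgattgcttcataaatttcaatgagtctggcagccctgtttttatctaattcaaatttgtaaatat
Around the other loco summit, 2 words were found. The forkhead word GTAAACA was centred 25 bp from the summit, 7 bp downstream of the start, and TATCGATA, the element bound by the replication-related factor DREF, 40 bp from it, 8 bp upstream of the start. Those bases are in part untranslated and are not shown.

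The 3 inner start sites of loco had no thresholded region. The nearest pooled summit to the start of RC and RF lay 608 bp upstream, with a signal of 102.7 at rank 4160. This region ranked 3574 in replicate 2 and 7927 in replicate 3, so replicate 2 alone had it among its 3707 strongest. An intronic region 1695 bp downstream of the start of RB, at 103.8 and rank 4088, was the strongest region of the 8 genes outside the thresholded list. It ranked 4421 in replicate 2 and 4569 in replicate 3. At the start of RH the pooled signal was 71.7, 129 bp downstream, rank 7386. At the start of RB it was 41.2, 39 bp upstream, rank 17748, and replicate 2 had no region there. In the pooled list loco had 16 regions in its window, more than any other of the 8 genes, and 12 of them had the summit inside the gene body.

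Gli (FBgn0001987, chr2L:15756002-15762758, minus strand) encodes Gliotactin, a transmembrane protein of the corners where barrier cells meet. It had 2 start sites and no thresholded region within 5 kb. Its strongest region had the summit 147 bp downstream of the outer start, with a pooled signal of 97.7 at rank 4512. The signal was 52.1 at rank 6021 in replicate 2 and 45.3 at rank 3761 in replicate 3. The summit fell on the same base, position 15762611, in all of these lists, while the rank in replicate 3 missed the 3707 strongest narrowly and that in replicate 2 by more. A second region followed, 463 bp downstream of the inner start, with 83.0 at pooled rank 5933, 51.4 at rank 6137 in replicate 2 and 27.9 at rank 8530 in replicate 3.

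Mdr65 (FBgn0004513, chr3L:6240500-6245746, minus strand) encodes a transporter of the ABC family, related to mammalian P-glycoprotein, that pumps foreign compounds out at the barrier. It had the fewest pooled regions of the 8 genes, 3, and none within 500 bp of its single start site. The strongest, with 71.1 at rank 7498, lay beyond its 3' end, 218 bp from a start site of the neighbouring gene CG10226. No pooled summit and no replicate 2 summit lay inside the gene body. Replicate 3 had 1 there, with a signal of 13.5 at rank 28791, close to the lowest signal of that list, 13.1.

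Gs2 (FBgn0001145, chrX:11422832-11430197, plus strand) encodes the cytosolic glutamine synthetase, which turns glutamate taken up by glia into glutamine. It was the member with the most thresholded regions nearest to its own start sites, 3, and the summits of all 3 lay in its introns. The strongest was chrX:11427514-11427631, 3632 bp downstream of the inner start site, with a pooled signal of 324.4 at rank 458. It had a signal of 152.1 at rank 805 in replicate 2 and of 174.7 at rank 206 in replicate 3. These ranks differed 3.91-fold, the widest gap among the 10 regions, with the summits 20 bp apart. The region was 118 bp wide, a width that 31 of the thresholded regions, 0.836%, had or were narrower than, where the median was 440 bp.

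The second region, chrX:11423447-11423886, had its summit 290 bp upstream of the inner start site, used by transcripts RA, RC, RE and RF, and 835 bp downstream of the outer one, used by RB and RD. Its pooled signal was 211.9 at rank 1132. In replicate 2 the signal was 116.4 at rank 1416, and in replicate 3 it was 92.9 at rank 939. The third, chrX:11425878-11426317, 2141 bp downstream of the inner start, had 149.2 at rank 2143, with 91.2 at rank 2165 in replicate 2 and 60.9 at rank 2163 in replicate 3. All 3 regions of Gs2 were thus among the 3707 strongest of both replicates. The count of Gs2 as a gene with a promoter region rested on the inner start site alone.

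The summit bases of these 3 regions are shown to set the promoter side beside the intron, the narrow region whole and the others with 50 bp on each side of the summit, on the strand of Gs2. Capitals mark GAGAG, which occurred 4 bp from the promoter-side summit and in neither of the others.
Gs2, promoter side, chrX:11423617-11423717, plus strand: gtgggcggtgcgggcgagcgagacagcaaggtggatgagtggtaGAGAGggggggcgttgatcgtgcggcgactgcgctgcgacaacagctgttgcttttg
Gs2, intron, chrX:11426048-11426148, plus strand: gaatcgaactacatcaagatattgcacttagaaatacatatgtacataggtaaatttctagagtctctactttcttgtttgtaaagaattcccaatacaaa
Gs2, intron, strongest, chrX:11427514-11427631, plus strand: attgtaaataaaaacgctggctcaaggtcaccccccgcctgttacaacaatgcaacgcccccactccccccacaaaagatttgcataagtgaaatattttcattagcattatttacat
Base composition differed widely among them. Within 50 bp of the summit, G and C made up 64.4% of bases on the promoter side, 29.7% at the weakest and 45.5% at the strongest, beside a median of 38.6% over all thresholded summits.

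Eaat1 (FBgn0026439, chr2L:9333567-9341925, plus strand) encodes the glutamate transporter that supplies Gs2 with its substrate in astrocyte-like glia. In contrast to Gs2 it had no thresholded region in its window. At its outer start site the pooled list had a summit 174 bp downstream, in the 5' UTR, with a signal of 94.0 at rank 4812. In replicate 2 the summit was 24 bp downstream, with 54.1 at rank 5639, and in replicate 3 it was 82 bp downstream, with 38.7 at rank 4957. Neither replicate placed it among the 3707 strongest. The inner start site, that of transcript RC, had a weaker pooled region 480 bp upstream, with 47.6 at rank 14118. A region 2 bp from the start of Cks30A, the gene upstream, was slightly stronger than that of Eaat1 itself, with 99.6 at rank 4388. In replicate 3 this neighbouring region ranked 3500, which brought Eaat1 into the genes with a region in the window when replicate 3 was used alone.

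The gene drpr (FBgn0027594, chr3L:1715595-1731107, minus strand) encodes Draper, the receptor by which glia recognise and engulf neuronal debris. All 6 of its transcripts begin at 1 start site, and 1 thresholded region, chr3L:1730874-1731313, had its summit 13 bp downstream of it. The pooled signal was 139.6 at rank 2423. The region had 87.5 at rank 2354 in replicate 2 and 63.4 at rank 1985 in replicate 3, among the 3707 strongest in both. The summit was in the 5' UTR of drpr and at the same time in the 3' UTR of Oseg4, an intraflagellar transport gene on the same strand, and its bases are not shown. The gene spans 15513 bp, and no pooled summit lay more than 5057 bp downstream of its start. The next strongest region, 788 bp downstream, had 62.3 at rank 9195.

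The gene repo (FBgn0011701, chr3R:18236192-18239602, plus strand) encodes a homeodomain factor found in nearly all glia and used as their standard marker. No list had a summit inside the gene body or within 500 bp of its start. The 1 thresholded region in its window lay 8571 bp downstream of the repo start, in an intron of 14-3-3epsilon, a signalling adaptor gene, 2076 bp from a start of the latter. That region had a pooled signal of 166.4 at rank 1759, with 110.5 at rank 1582 in replicate 2 and 56.6 at rank 2496 in replicate 3. It overlapped only the edge of the window, and its summit lay beyond it. The count of repo as a gene with a region in the window rested on this overlap alone. With the summit required inside the window, 9 regions were counted at the genes in place of 10. The pooled region nearest to repo by start site lay 4894 bp upstream with a signal of 31.9, near the lowest of that list, 29.4.

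Set in order of their strongest pooled summit within 500 bp of a start site, the genes ran moody, Gs2, drpr, loco, Gli and Eaat1, with repo and Mdr65 having none. A pooled summit at the promoter was thus present at 6 of the 8, beside 57.6% of all protein-coding genes. The orders in the replicates were the same for the first 4 genes, while Gli and Eaat1 changed places, with Eaat1 ahead in replicate 2 and Gli in replicate 3. Counted per 10 kb of gene and flanks, pooled regions numbered 6.95 at moody, 6.91 at Gs2 and 5.44 at loco. They numbered 4.77 at Gli, 4.36 at Eaat1, 2.98 at repo, 2.74 at drpr and 1.97 at Mdr65, beside 2.24 over the chromosome arms. The value over the arms covers all sequence rather than windows around genes, so it is not a like measure. Of the 69 pooled regions in the windows, 43 were nearest to a start site of the glial gene and 37 had the summit in its body. Nearest to the gene's own start sites were 4 of 11 at moody, 11 of 12 at Gs2 and 12 of 16 at loco. The matching shares over all genes and pooled regions were not computed, so nothing is read from these counts.

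The weakest thresholded region in these windows was the loco and wake region at 111.4. In the same windows 5 pooled regions ranked within 1000 places below it, with signals from 103.8 to 97.7. Among them, the region of 99.6 was nearest to a start of Cks30A and that of 98.8 to a start of 14-3-3epsilon. The others were nearest to a start of loco or Gli.

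**Figure D2:**
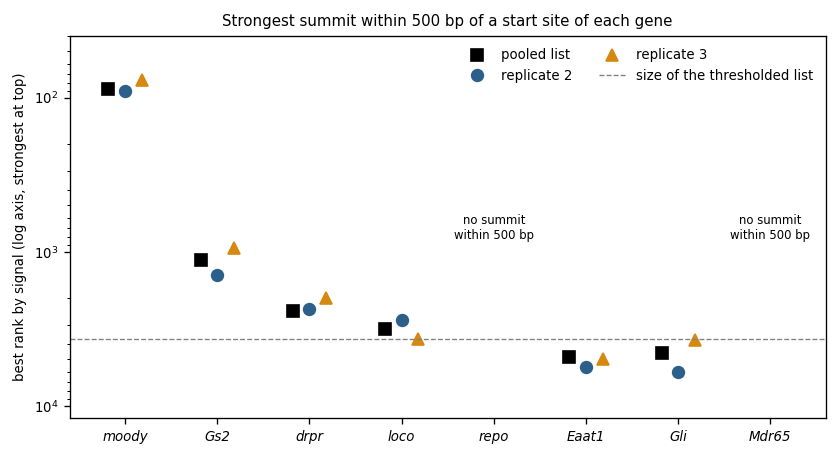
The strongest summit within 500 bp of a start site of each gene is plotted by its rank by signal (y axis, log scale, strongest at the top) in the pooled list and in replicates 2 and 3. The dashed line is at rank 3707, and loco, Gli and Eaat1 lie close to it, while moody has ranks of 77 to 90.

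The comparison of replicates described how both libraries held these regions. The thresholded list was itself made with the ranks in both replicates, so overlap with their strongest regions was in part built in. Of the 10, 9 overlapped by at least 1 bp a region among the 3707 strongest of both replicates, beside 75.9% of all thresholded regions. The exception was the region at the start shared by Actn and usp. When each region was matched to the overlapping one with the nearest summit, 7 of the 10 had both matches among the 3707 strongest, beside 70.9% of all, because each loco region met this limit in 1 replicate through its neighbour. The ranks of the nearest-summit matches differed by a median of 1.34-fold between replicates, beside 1.47-fold over all thresholded regions. Their summits lay a median of 24 bp apart, as over all. Both lists were made by the authors with the same control alignment, and its part in the shared regions was not tested.

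**Figure D3:**
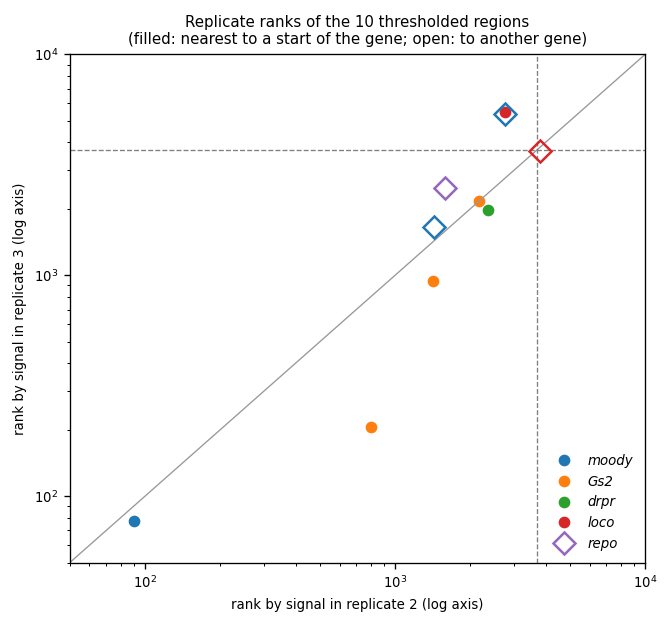
The 10 thresholded regions are plotted by the rank of the overlapping region with the nearest summit in replicate 2 (x axis) and replicate 3 (y axis), both on log scales, with dashed lines at rank 3707 and a line of equal rank. An open moody diamond (2744 in replicate 2, 5350 in replicate 3) encloses a filled loco point (2759 and 5469), and the strongest Gs2 region, at 805 and 206, lies farthest from the line.

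Words known from fly promoters were looked for on either strand around the 10 summits, in windows of 101 bp centred on them. GAGAG was found at 2, the promoter side of Gs2 and the 14-3-3epsilon intron, beside 12.6% of all thresholded summits. The forkhead words GTAAACA and ATAAACA were found at 1 and 0, beside 6.02% and 6.04%. TATCGATA was found at 1, beside 3.86%, and the E-box CACGTG at 0, beside 1.13%. In all, 3 of the 10 held at least 1 word, and 27.1% of all thresholded summits did. TATCGATA and ATAAACA can overlap at their ends, as can copies of GAGAG, and a word is not by itself a binding site. Only exact matches to these words were counted, so other forms of the forkhead word, such as GTAAATA, were not.

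The genes whose promoter region was most alike in rank were taken as those with the smallest distance over the log2 ranks in the pooled list and both replicates. For moody they were CG13501, with a signal of 623.0, then Hrd3 and PTPMT1, which have 1 region of 621.1 in common. For Gs2 they were CG18476, with 210.0, then CG5003 and mRpS22, with a common region of 207.0. For drpr they were CG10366 and PCNA2, both with 140.4, and CG32573, with 146.6. For loco they were Actn, whose region of 120.6 is the one in the moody window described above, CG13323, with 122.4, and CG10646, with 117.8. The measure rests on 2 libraries and their pool and orders genes by height of signal alone.

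The roles of these genes were followed into 45 other glial genes in 6 lists, written out with an earlier account of these data known. A thresholded promoter summit was present at 13 of the 45, or 28.9%, beside the 22.9% of all protein-coding genes given above. Of the 13 regions, 12 overlapped one of the 3707 strongest in both replicates, beside 75.9% of all thresholded regions. The signals of the 13 ran from 129.3 to 245.1, all below that of the moody promoter region, 612.9. The promoter region of Gs2, at 211.9, fell inside that range. The lists differed in their counts, and with so few genes in each list no difference between them was tested.

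Of 4 genes of the Moody pathway, 3 had a promoter region. Galphai and Galphao, the G protein alpha subunits that Moody and Loco act on, had signals of 154.4 and 146.0, and Pka-R2, a regulatory subunit of protein kinase A, had 130.0. The Galphai region ranked 1037 in replicate 3 but 4940 in replicate 2. The catalytic subunit gene Pka-C1 had 93.3, under the threshold.

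Among genes of the barrier and its septate junctions 6 of 14 had one. They were Atpalpha, the sodium pump subunit, with 215.8, cora, a junction scaffold, with 202.8, pck, a claudin, with 175.0, Lac, an immunoglobulin-domain protein, with 162.9, Nrg, the fly Neuroglian, with 145.2, and Cont, the fly Contactin, with 129.3. The other 8 included vari at 109.2, rank 3732, the closest of them to the threshold, and Nrx-IV at 40.1. For sinu, which encodes a further claudin, no pooled summit lay within 500 bp.

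In the engulfment pathway downstream of Draper 3 of 9 had a region. The adaptor gene ced-6 had 179.1 and the kinase gene Shark 138.9. The region counted for mbc, which encodes a Rac activator, had 245.1 and lay in the 5' UTR of Nup98-96, a nuclear pore gene that begins close by. Rac1, Ced-12, Src42A, Crk, NimC4 and Mmp1 had no thresholded summit at the promoter, and the best pooled signal among them was that of Rac1, 88.6.

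The remaining lists held few genes with a promoter region, beside the 22.9% of all protein-coding genes. Of the 8 genes of astrocytes and transmitter handling 1 had a region, the gap junction gene Inx2 with 160.0, which is used in many tissues. The astrocyte marker alrm, the GABA transporter gene Gat, Eaat2 and e had no pooled summit at the promoter, and Gs1, the mitochondrial counterpart of Gs2, had a best signal of 51.8. Of the 6 genes of glial fate none did, among them gcm and gcm2, which start glial development in the embryo, and of the 4 genes of wrapping and cortex glia none did. The highest promoter signal among the fate genes was that of pnt, 100.1 at rank 4346. Within the gene body or 5 kb of it, 4 of 8 astrocyte, 3 of 6 fate and 3 of 4 wrapping and cortex genes had a thresholded region. Among all protein-coding genes 48.4% did.

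**Figure D4:**
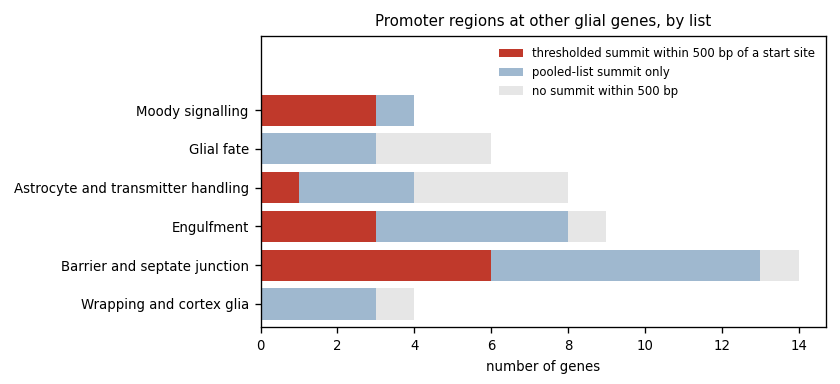
For each of 6 lists of other glial genes the bar gives the number of genes (x axis) with a thresholded summit within 500 bp of a start site in red, with a pooled-list summit only in blue and with no summit in grey. The red part holds 3 of 4 Moody pathway genes, 6 of 14 barrier genes, 3 of 9 engulfment genes and 1 of 8 astrocyte genes.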

How the data were processed

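ChIP-seq region lists from 2 libraries of whole adult flies with Crg-1-GFP (1 group, replicates 2 and 3) were used. Chromatin was sonicated to 200 to 800 bp, per the labels. Per the deposited file descriptions, the authors made each replicate list from that replicate's alignment and 1 shared control alignment, the pooled list from both, and the thresholded list from all 3 by irreproducible discovery rate, which rests on ranks held across replicates. The deposited signal is a height per region. Its scaling and the peak caller, aligner and their settings were not stated in the labels or file descriptions. The summit offset was used as deposited. The 3707 thresholded regions were those of highest signal among the 30000 of the pooled list. Depth is unknown.

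Only dm6 lists were used, with the Release 6 genome and Ensembl release 115. Printed coordinates count from 1. The dm3 lists were not used here. Regions were ranked by signal with Python 3.11.15 and pandas 2.3.3. Summits were assigned by distance to every annotated start site, and overlap meant at least 1 bp. The genes, gene lists and words were chosen with earlier results of these data known. Named genes were the 8, the genes nearest to their thresholded summits, the 3 most alike in rank for each gene with a promoter region, and list genes with one. Other genes were named after their values were seen. No test was run, since the region calls entered the choice of genes. The counting was checked on simulated data with known answers.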

Additional observations from a re-analysis of the deposited data

How the results depend on the processing

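Alternatives covered the window, the promoter distance, the start sites, how overlap is defined, list length, the word window and each replicate alone. Of 34 alternative values 26 stayed within 1.5 times the main count. Above the median signal of the thresholded list, 161.2, 2 genes had a promoter region, moody and Gs2, beside 13.7% of all protein-coding genes, and 5 regions lay in the windows. With gene bodies alone 3 genes and 6 thresholded and 40 pooled regions were counted. With the 1000 strongest regions of each replicate, 2 of the 10 regions were held by both, those at pooled ranks 88 and 458. The other regions had pooled ranks beyond 1000. At 25 bp of the summit 1 held a word, and at 100 bp 6 did. For these settings and for gene bodies alone, the share over all regions or genes was not computed.

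The 4 genes with a promoter region became 3 at 250 bp, beside 19.6% of all protein-coding genes, stayed 4 at 1000 bp, beside 25.6%, and became 3 with the outermost start site alone, where the share of all genes was not computed. In replicate 3 alone and replicate 2 alone 4 genes had a promoter region, beside 22.4% and 22.6% of all. In the same order, 6 and 5 genes had a region in the window, with 11 and 10 regions, and 15 and 13 of the other glial genes had a promoter region. The share of all genes with a region in the window was not computed for either replicate alone. No paired analysis was possible because there is 1 group. Depth is unknown, so a gene without a region is not shown to be unbound. The lists end at 30000 regions, and weaker signal was not analysed here.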
